A study of Mus musculus with 2 samples.

Results

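Broad TBP regions are long stretches of the mouse autosomes over which reads of both TBP libraries piled up without a break. They were chosen by read number. Chromosomes 1 to 19 were divided into tiles of 200 bp, and a site was a run of touching tiles that each held at least 15 distinct reads in library B2 and 6 in library B6. A distinct read is 1 read per position and strand among reads with 1 alignment, placed 60 bp inward from its 5′ end. Sites of 4 or more tiles, that is 800 bp or longer, were kept, except on chromosome 13 between 21 and 24 Mb, on chromosome 17 over 20 kb from position 39440001, and below 3.2 Mb on any chromosome. The rule gave 481 broad regions among 13024 sites in all, or 12759 sites outside the places left out. A further 24 sites of this length lay in those places.

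Both libraries belong to 1 group: chromatin of V6.5 cells (C57BL/6-129), a mouse embryonic stem cell line, pulled down with the TBP antibody Abcam AB818. B2 (replicate 1) came from cells kept off feeder fibroblasts for 2 passages and B6 (replicate 2) from cells kept off them for 1 passage. Chromatin was sonicated to about 500 bp on average, amplified by 18 cycles of PCR, and cut from a gel between 150 and 350 bp for B2 and between 150 and 300 bp for B6. Whether these were separate cultures is not given in the labels, so the spread between them may be technical. A control without the antibody was not analysed here, and a region is therefore a place where reads repeatedly piled up, which need not be TBP in every case.

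TBP, the TATA-binding protein, is a subunit of the factors that place each of the nuclear RNA polymerases at its start sites, among them TFIID at protein-coding genes and TFIIIB at tRNA genes. It bends the DNA of the TATA box and is also brought to promoters that lack one. Promoters are known in a focused form, with a narrow start site, and a dispersed form, in which starts are spread along the DNA, and genes on opposite strands often share a divergent promoter with a start for each direction. A long TBP site could in principle be 1 wide peak or several narrow ones side by side. Reads were placed on mouse build mm8. No annotation or sequence of that build was used here, so the regions are given by position only and their genes, exons and motifs were not analysed here.

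B2 held 15887305 distinct nuclear reads and B6 held 2856259. The mean autosomal tile was taken over stretches that held a read of either library. It had 1.44 distinct reads in B2 and 0.259 in B6, so the read minimum stood at 10.4-fold over it in B2 and 23.1-fold in B6. A tile can hold at most 400 distinct reads, and the fullest tile of a broad region held 280. The edges of the regions depend on where tiles begin. With tiles moved by 100 bp, 455 regions of 4 or more tiles were found, and they overlapped 237 of the 481 (49.3%). The share found again was 43.6% of the 351 regions of 4 tiles, 61.96% of the 92 of 5 tiles and 71.1% of the 38 of 6 or more.

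Broad regions were few but rich in reads. They made up 3.77% of sites and held 12.7% of the distinct reads of sites in B2 and 12.8% in B6. Sites became scarce with length, from 6843 of 1 tile, 4179 of 2 and 1256 of 3 to 351 of 4, 92 of 5, 23 of 6, 8 of 7, 5 of 8 and 2 of 9. Across the threshold the change was gradual. Sites of 3 tiles held a median of 123 reads in B2 and 42 in B6, and sites of 4 tiles held 166 and 59. The highest tile had a median of 58 and 21 reads in sites of 3 tiles, and of 65 and 23 in sites of 4.

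Most broad regions were also high, though height alone did not make a site long. Their highest tile held from 22 to 280 reads in B2 with a median of 67, and from 7 to 141 in B6 with a median of 24. In RPM, the read number scaled by the distinct nuclear reads of the library, the medians were 4.22 in B2 and 8.40 in B6. Among the sites at or above the 98th percentile of B2 height, 67 of 261 (25.7%) were broad, and in B6 68 of 262 (25.95%). The remaining sites of that height were 3 tiles or shorter, and the highest tile of all sites outside the left-out places, with 327 reads in B2 and 221 in B6, belonged in each library to a site of 3 tiles. At the other end, 32 broad regions in B2 and 24 in B6 stayed below the median height of all sites. These values chose the regions, so they carry no test.

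**Figure D1:**
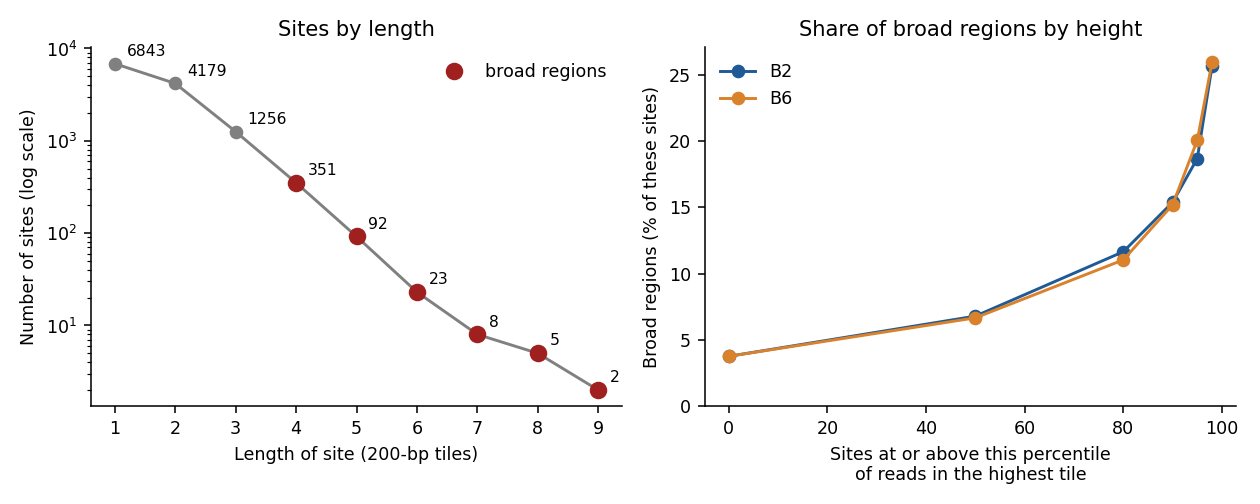
Left, number of sites (log scale) by length in 200-bp tiles, with broad regions in red, falling from 351 at 4 tiles to 2 at 9 tiles. Right, percent of sites that were broad among sites at or above each percentile of reads in the highest tile, in B2 and B6, rising from 3.77% of all sites to 25.7% and 25.95% at the 98th percentile.

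The longest regions, those of 9 tiles, were rows of separate peaks. The region chr5:31163801-31165600, of 9 tiles, held per tile 49, 106, 80, 83, 215, 69, 205, 45 and 28 distinct reads of B2, and 18, 48, 17, 26, 77, 23, 83, 8 and 18 of B6. The fifth and the seventh tile stood out in both libraries, with a dip to 69 and 23 reads between them. Profiles of reads in a sliding window of 100 bp placed 4 summits in each library, at 160, 390, 850 and 1290 bp from the start in B2 and at 210, 360, 850 and 1280 bp in B6.

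The other region of 9 tiles, chr11:68856401-68858200, carried 1114 distinct reads in B2, the most of the 481 regions in that library, and 377 in B6. Its tiles held 199, 87, 24, 167, 93, 177, 77, 172 and 118 reads in B2, and 80, 26, 6, 63, 20, 46, 21, 64 and 51 in B6. High and low tiles alternated in the same order in both libraries, and the third tile, with 6 reads in B6, met the minimum exactly. Its 4 summits lay 150, 770, 1150 and 1580 bp from the start in B2 and within 10 bp of these places in B6.

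Near it, chr11:68878401-68880000 (8 tiles) held 1096 and 454 distinct reads, again with 4 summits in each library. Its highest tile had 242 reads in B2 and 113 in B6 and was the fifth tile in both. The region chr11:68853001-68854200 (6 tiles) held 748 and 234 reads in 3 shared summits. Gaps of 2200 bp and 20200 bp part these 3 regions. Duplicates, the reads beyond the first at a position and strand, made up 53.2% to 64.4% of their reads in B2 and 25.5% to 36.1% in B6.

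Other long regions had fewer peaks or lower ones. In chr11:69574201-69575800 (8 tiles) the second and the fourth tile held 161 and 237 reads in B2 and 90 and 121 in B6, and no tile of the last 4 passed 63 in B2 or 15 in B6. In chr7:4355001-4356400 (7 tiles) 2 summits stood 840 bp apart in B2, at 270 and 1110 bp from the start, and at 270 and 1130 bp in B6. The tiles between them fell to 20 reads in B2 and 8 in B6. Low signal along the whole length marked chr9:13576801-13578400 (8 tiles), where tiles held 17 to 55 reads in B2 and 6 to 22 in B6. In chr15:81349201-81350800 (8 tiles) tiles held 21 to 97 reads in B2 and 7 to 30 in B6. The seventh tile was the highest there in both libraries.

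The region whose lowest tile held the most reads in B2 stayed high in every tile. In chr1:172938401-172939800 (7 tiles) the tiles held 118, 183, 137, 127, 104, 144 and 175 reads in B2 and 43, 62, 55, 61, 47, 48 and 76 in B6, so the lowest tile in B2 kept over 100 reads. Within it 4 shared summits were found, 1000 bp apart from first to last in B2. It held 988 and 392 distinct reads, with 61.8% of its reads in B2 and 28.9% in B6 being duplicates. The region chr19:12078001-12079400 (7 tiles) differed between libraries in shape: B2 had 3 summits and B6 had 1, and tiles held 78, 104, 35, 248, 260, 101 and 95 reads in B2 but 18, 21, 7, 90, 72, 27 and 22 in B6.

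**Figure D2:**
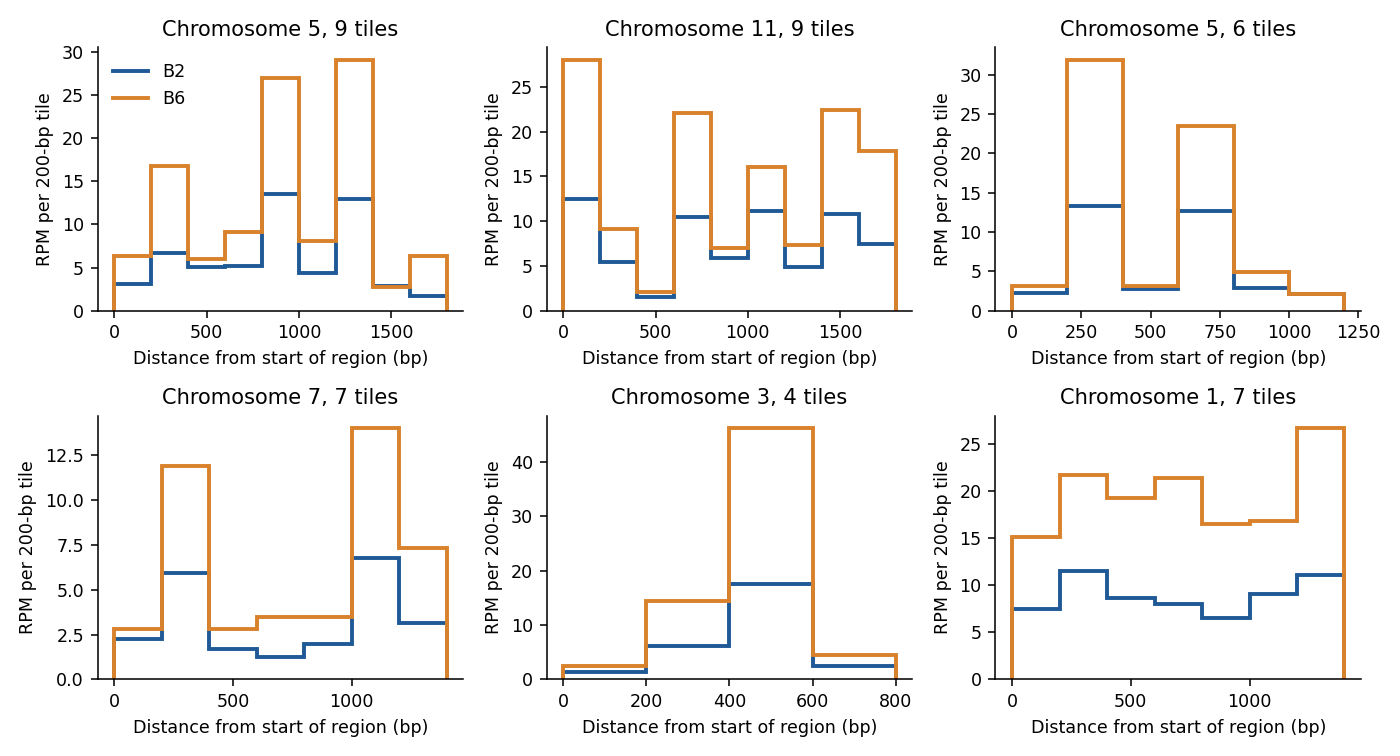
RPM per 200-bp tile along 6 broad regions, named in the panels by chromosome and length, against distance from the start of the region, with B2 in blue and B6 in orange. In the 2 regions of 9 tiles and those of 6 and 7 tiles on chromosomes 5 and 7 high tiles are parted by lower ones in both libraries. The region on chromosome 3 has 1 high tile, and that on chromosome 1 stays high throughout.

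The highest peak of a broad region was about as wide as that of sites of 3 tiles. It was slightly wider than that of all shorter sites together, and the lower peaks of the regions were not measured. The width at 50% of the highest summit was read from the sliding window, which by itself spreads a point over 100 bp. In broad regions its median was 190 bp in B2 (quartiles 160 and 220) and 150 bp in B6 (130 and 180), a mean of 170 ± 28.3 bp (SD, n = 2). Sites of 1 to 3 tiles had medians of 180 and 130 bp, and sites of 3 tiles had the same medians as broad regions, 190 and 150 bp. Only 13 broad regions (2.70%) reached 400 bp in B2, against 264 of 12278 shorter sites (2.15%). In B6 these 13 measured 100 to 290 bp, and none reached 400 bp in both libraries. Across the 481 regions the widths in the 2 libraries were only weakly related (Pearson's r = 0.234, Spearman's rho = 0.246, n = 481, a description over regions that share their libraries).

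Most broad regions held more than 1 summit in both libraries. A summit had to reach 30% of the highest point, to be parted from its neighbour by a valley of at most 70% of the lower of the pair, and to have a partner within 100 bp in the other library. By this measure 352 of 481 regions (73.2%) had at least 2 shared summits. There were 245 with 2, 85 with 3 and 22 with 4 or more, against 127 with 1 and 2 with none. Sites of 3 tiles had at least 2 in 51.6% of cases and sites of 2 tiles in 21.1%. Longer sites offer more room for summits and hold more reads, so this order follows partly from the rule. Requiring at least 10 reads per 100 bp at each summit in both libraries, a setting chosen after seeing the data, left 221 regions (45.95%), so low summits made up part of the count.

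The gaps between neighbouring shared summits were short and varied. Over 483 gaps the median was 350 bp, with quartiles of 270 and 430 bp and extremes of 80 and 840 bp. Gaps below 250 bp numbered 92, gaps of 250 to 499 bp 325, and gaps of 500 bp or more 66. The length of the regions bounds these gaps from above, and the window of 100 bp limits how well closer summits can be told apart. In the 245 regions with exactly 2 shared summits the median gap was 410 bp. The lower summit had a median of 0.636 of the height of the higher one in B2 and 0.609 in B6, and the valley fell to a median of 27.0% of the lower summit in B2 and 14.3% in B6. In chr5:125694801-125696000 both peaks were nearly equal in B2 and less so in B6. The second and the fourth tile held 211 and 202 reads in B2 and 91 and 67 in B6, with 43 and 9 reads in the tile between. By summit the order turned between libraries, with 125 and 135 reads per 100 bp in B2 but 61 and 49 in B6.

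**Figure D3:**
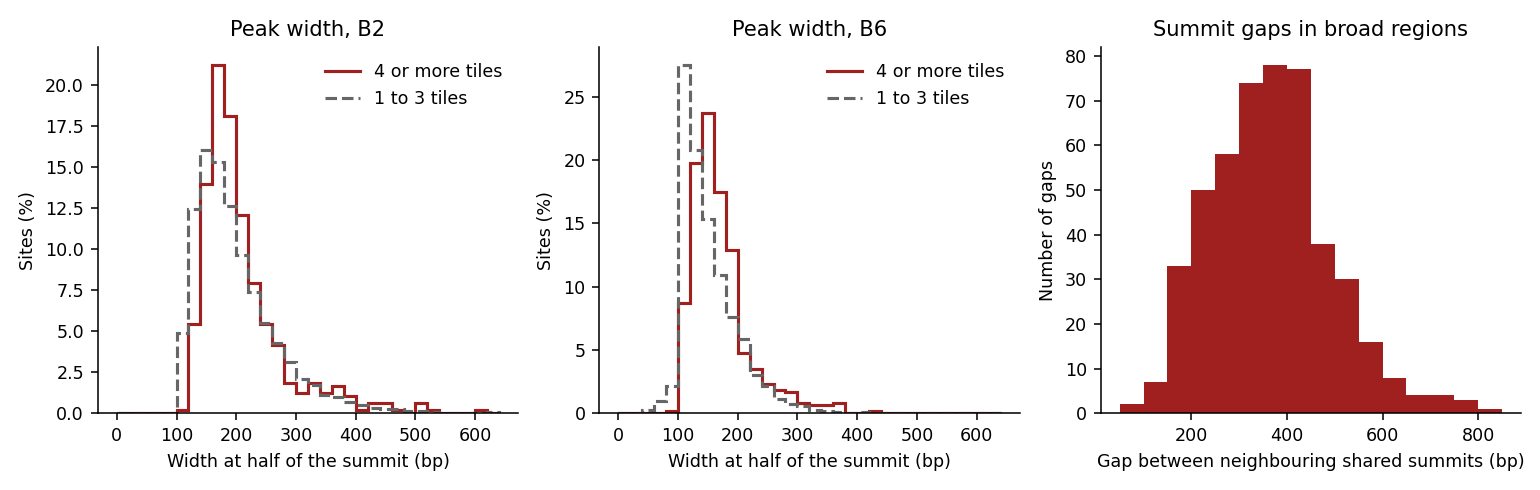
Left and centre, percent of sites by width at 50% of the highest summit (bp) in B2 and B6, for broad regions (red) and sites of 1 to 3 tiles (dashed), with widths above 640 bp counted in the last step; the medians are 190 and 180 bp in B2 and 150 and 130 bp in B6. Right, number of gaps between neighbouring shared summits in broad regions by size (bp), with a median of 350 bp.

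The order of the peaks inside a region was mostly repeated between libraries. In 445 regions with a single highest tile in each library, the highest tile was the same in 316 (71.0%). The highest points of the sliding window lay a median of 30 bp apart in the 2 libraries. They were within 50 bp in 324 of 481 regions (67.4%) and over 200 bp apart in 91 (18.9%). Among the 245 regions with 2 shared summits, the same one was higher in both libraries in 188, the other one in 46, and 11 were tied. Where the lower summit in B2 reached at most 0.6 of the higher one, the order was the same in 105 of 111 regions.

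Of the 5 highest broad regions by the mean RPM of both libraries, a rank that B6 weighs on more since its values are higher, 4 had 1 shared summit. The first was chr3:96014201-96015000, whose 4 tiles held 22, 97, 280 and 39 reads in B2 and 7, 41, 132 and 13 in B6. Its highest tile reached 17.6 RPM in B2 and 46.2 in B6, a mean of 31.9 ± 20.2 RPM (SD, n = 2), and it had 1 summit in each library. Similar shapes were seen in chr15:80082201-80083000, with 47, 82, 252 and 83 reads in B2 and 28, 23, 128 and 25 in B6, and in chr7:28081201-28082000, with 23, 35, 258 and 71 in B2 and 6, 7, 123 and 17 in B6. In these 3 regions the outer tiles passed the minimum beside 1 tall peak. Of like height, chr2:122068801-122069600 had 2 peaks 410 bp apart in B2, with tiles of 243, 50, 188 and 99 reads in B2 and 126, 11, 72 and 35 in B6. The region chr8:73627201-73628200 was in this group through B6, at 49.4 RPM, against 9.44 in B2. By B2 alone the next after the region on chromosome 3 were chr3:19820001-19821200, with 278 reads in its highest tile and 3 shared summits, and chr19:12078001-12079400, with 260.

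Outside their borders broad regions stood near the level of shorter sites. The first tile outside held a mean of 9.86 reads in B2 and 2.48 in B6, and tiles there had to miss the minimum in at least 1 library. At 900 bp from the border the mean was 3.75 reads in B2, 2.60-fold over the mean autosomal tile of stretches with reads, and 0.828 in B6, 3.19-fold. Sites of 1, 2 and 3 tiles had 2.48-, 2.27- and 2.29-fold in B2 and 2.91-, 2.71- and 2.87-fold in B6 at that distance. At 4900 bp all 4 classes lay between 1.47- and 1.56-fold in B2 and between 1.47- and 1.49-fold in B6. Tiles that belonged to any site were left out of these means.

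**Figure D4:**
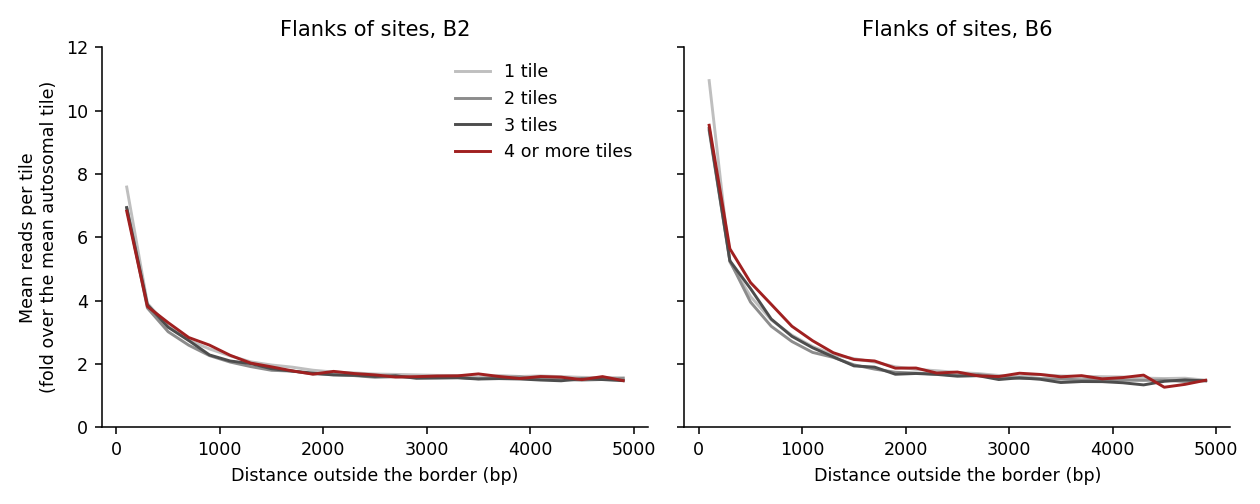
Mean distinct reads per tile against distance outside the border (bp) for sites of 1, 2, 3 and 4 or more tiles in B2 (left) and B6 (right). Values are folds over the mean autosomal tile of stretches with reads. The 4 lines run close together, and broad regions stand at 2.60-fold in B2 and 3.19-fold in B6 at 900 bp.

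Reads of the plus strand lay before those of the minus strand in most broad regions. The rule moves reads inward by strand, so these distances are a description and not independent of the choice. The mean minus-strand end lay a median of 72.0 bp after the mean plus-strand end in B2 and 77.3 bp after it in B6. The distance was above 0 in 449 of 481 regions (93.3%) in B2 and in 426 (88.6%) in B6, and 8 regions were at or below 0 in both. With reads left at their 5′ ends, so that strand played no part, the rule gave 625 regions. Their medians were 77.7 bp in B2 and 81.7 bp in B6, with 94.4% and 89.6% above 0. This setting was chosen after seeing the data. Within 1 kb of the centres, plus and minus ends were commonest 105 bp apart in B2 and 68 bp apart in B6, searched from 45 bp up. In sites of 1 to 3 tiles these distances were 99 to 111 bp in B2 and 71 to 74 bp in B6. The region chr1:172938401-172939800 had a distance of 15.5 bp in B2 and -60.5 bp in B6. The regions of 9 tiles had 164 and 48.1 bp on chromosome 5 and 122 and 85.8 bp on chromosome 11.

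Repeated reads and reads with 2 alignments, neither counted by the rule, were unevenly spread over the regions. Duplicates made up a median of 13.3% of reads in B2 and 9.09% in B6, against 10.2% and 6.52% in sites of 1 to 3 tiles. They exceeded 50% in B2 in 24 broad regions (of 142 such sites of any length) and in B6 in 2 (of 22). Reads with 2 alignments were present in 125 broad regions (25.99%) in B2 and in 285 (59.3%) in B6, against 11.5% and 26.9% of shorter sites. Reads were 36 bases long in B2 and 26 in B6, and the part of read length in this was not tested. Broad regions cover more bases, which raises these shares. In 42 regions both libraries had at least 10 reads with 2 alignments, and their duplicates had a median of 41.6% in B2, against 11.8% in the 189 regions with none in either library. The part of repeated sequence in the other results was not tested beyond leaving these 42 out, which kept 322 of 439 regions (73.35%) with at least 2 shared summits.

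The extremes lay close together on chromosome 2. The region chr2:98467001-98468200 (6 tiles) held 9867 reads in B2 at 632 distinct positions, so 93.6% were duplicates, and 1183 reads in B6 at 332 positions (71.9%). Its neighbour chr2:98463001-98463800, 3200 bp away, held 2772 reads at 393 positions and 479 at 210. The strands of the first were 26.9 and 5.38 bp apart in B2 and B6, and those of the neighbour 7.09 and -16.5 bp, all below the medians of broad regions. The region chr14:18208801-18210400 (8 tiles) had 1365 reads at 438 positions in B2 and 570 at 332 in B6, with strand distances of 29.2 and -22.8 bp. These 3 regions also held the most reads with 2 alignments.

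Few broad regions took a different share of reads in the 2 libraries. Over all 13024 sites, B6 gave 26.95% of the distinct reads, and each site was compared with that share by a two-sided exact binomial test with Benjamini-Hochberg adjustment at 0.05. With 1 library on each side this compares the libraries and no condition. Of the 481 broad regions 8 passed, against a background of 0.76% of all sites (99 of 13024). Of these, 7 were higher in B6 (0.507% of all sites) and 1 was lower (0.253%). Broad regions held a median of 243 reads in both libraries together and all sites 62, so the test could see smaller differences in them. The median ratio of B6 to B2, relative to all sites, was 0.980 in broad regions, with 0.721 and 1.36 as the 5th and 95th percentiles. At an unadjusted p of 0.05 or less there were 65 broad regions (13.5%), against 1152 of all sites (8.85%). Of the 8 past the adjusted threshold, 5 had duplicates above 50% in B2, against 24 of all 481 broad regions.

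A check of the calls took the highest tile of each library alone, which need not be the same tile in both. Of the 4 regions that kept their call by it, 3 had no read with 2 alignments in B2. For chr8:49173801-49174600 it set the third tile in B2 against the second in B6. In chr8:73627201-73628200 there were 297 distinct reads in B2 and 224 in B6, a relative ratio of 2.04 (95% exact interval 1.71 to 2.44, adjusted p = 7.07e-12 by the exact binomial test). Most of its B6 reads lay in the fourth tile, with 150 in B2 and 141 in B6. The tiles held 35, 48, 49, 150 and 15 reads in B2 and 9, 28, 22, 141 and 24 in B6, so the fifth tile had more reads in B6 than in B2. In chr8:49173801-49174600 (260 and 164 reads) the ratio was 1.71 (1.40 to 2.09, adjusted p = 9.5e-05, exact binomial test), with 96 and 112 reads in the middle tiles in B2 but 89 and 42 in B6. Background reads of chromosome 8 outside sites were themselves 1.097 times the autosomal median ratio in B6, and the 39 broad regions there had a median ratio of 1.02. In chr2:154482001-154483000 (219 and 132 reads) it was 1.63 (1.31 to 2.04, adjusted p = 0.00411, exact binomial test). The fourth was chr14:18208801-18210400, with a ratio of 2.05 (1.78 to 2.37, adjusted p = 1.72e-18, exact binomial test).

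The remaining 4 lost their call with the highest tile of each library alone, at ratios of 1.47, 1.42, 1.26 and 0.926. The tiles compared were different ones in chr2:98463001-98463800, chr14:78215201-78216200 and chr19:12078001-12079400. With all reads kept, 3 of the 4 turned direction. The pair on chromosome 2 had ratios of 1.42 and 1.45 by distinct reads but 0.366 and 0.528 with all reads kept. Likewise chr14:78215201-78216200 (432 and 222 distinct reads) went from 1.39 to 0.746. The lower one, chr19:12078001-12079400 (921 and 257), had 0.756 (0.656 to 0.869, adjusted p = 0.0117, exact binomial test) and 0.450 with all reads. With all reads kept 49 broad regions passed, 11 higher and 38 lower in B6, against a background of 3.82% of all sites. With the highest tile of each library alone 4 passed, against 0.43%. Without the 42 regions rich in reads with 2 alignments 4 of 439 passed, against 0.76% of all sites, where such sites were kept. The pair on chromosome 2, chr14:18208801-18210400 and chr19:12078001-12079400 are among the 42. Leaving these 42 out was a setting chosen after seeing the data. Measured against the B6 part of all distinct nuclear reads, 458 passed, all of them higher in B6, against 51.3%, since sites as a whole held a larger part of B6. With the share taken from sites outside the left-out places, a setting chosen after seeing the data, 10 passed against 0.768%.

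**Figure D5:**
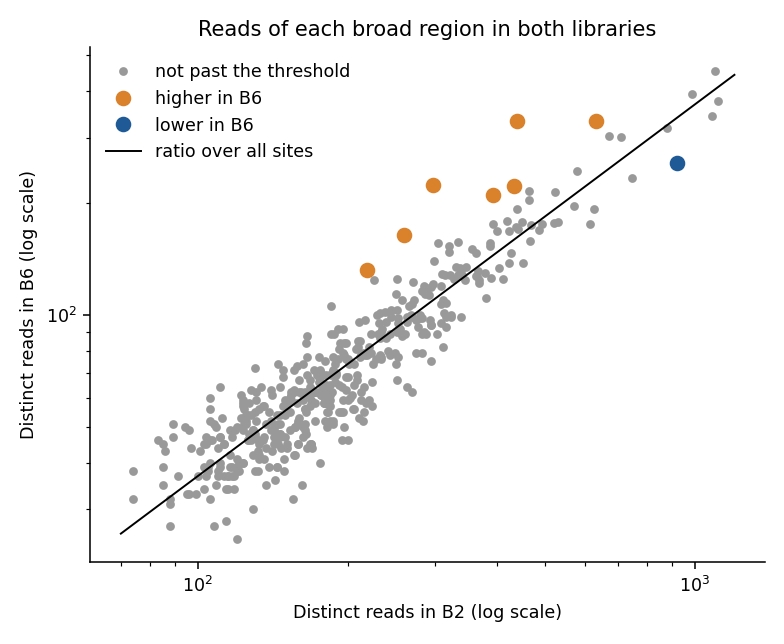
Distinct reads of each of the 481 broad regions in B6 against B2, both on log scales, with the line for the ratio over all sites. The regions past the threshold are coloured, 7 above the line (orange, higher in B6) and 1 below it (blue).

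Broad regions were spread over all autosomes, in numbers from 3 on chromosome 16 to 51 on chromosome 11. As a share of the sites of a chromosome they ranged from 0.748% on chromosome 16 (3 of 401, Wilson 95% interval 0.255 to 2.18) to 5.09% on chromosome 15 (28 of 550, 3.55 to 7.26). The other 17 chromosomes lay between 2.62% and 5.07%, and the difference of chromosome 16 from them was not tested. Another site of any length lay within 5 kb of 29.7% of broad regions, against 32.9% of shorter sites. Another broad region lay within 50 kb of 48 (9.98%) and within 10 kb of 12, which formed 6 pairs.

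The pairs included long regions side by side. On chromosome 8, chr8:11555001-11556200 and chr8:11557801-11558600 were 1600 bp apart. The distinct reads of B2 numbered 467 and 315, and those of B6 175 and 108. On chromosome 17, chr17:33729401-33730400 and chr17:33732401-33733400 were 2000 bp apart, with unlike totals, 393 and 176 for B2 and 176 and 71 for B6. On chromosome 5 the region with 2 nearly equal peaks in B2 named above had chr5:125698201-125699000 as its neighbour, 2200 bp away. That region also had 2 shared summits. Its tiles held 49, 184, 96 and 137 reads in B2 and 9, 85, 23 and 41 in B6. Its summits lay 410 bp apart in B2, against 440 bp in the first. In each of the 5 closest pairs the region with more reads in B2 also had more in B6. Except on chromosome 17, where both had 5 tiles, that region was also the longer one. Each tile had to pass a minimum in both libraries, so this order follows partly from the rule.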

How the data were processed

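TBP ChIP-seq was analysed from 2 libraries of V6.5 cells. The deposited files list signed read positions on mm8, in a unit other than counts. The authors aligned reads with Bowtie (version not given in the sources used here) with -e 70, -k 2, -m 2 and -n 2, and -l 36 for B2 and 26 for B6, per the file headers. Positions were taken as leftmost bases counted from 0 and are printed counted from 1. Distinct reads, tiles and sites were computed in Python 3.11.15 (pandas 2.3.3, SciPy 1.17.1, NumPy 2.4.6), and figures in matplotlib 3.10.9. Profiles used a window of 100 bp in steps of 10 bp. The share test and the summit search were tested on simulated data. The planted share differences were larger than those of the regions past the threshold, and the planted peaks had no background reads. How often smaller differences are missed, or summits arise from background, was not tested. The 95% intervals cover only counting error, as amplified reads carried no molecular identifiers and may not be independent. The p-values measure these 2 libraries.

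The regions and measures were chosen with earlier results of these data known. Regions named are the 10 with the most tiles, the 5 highest by mean RPM, the 3 largest and 3 smallest ratios past the threshold, the 5 widest sets of shared summits, the 5 closest pairs within 10 kb and the 3 with the most reads with 2 alignments. The regions chr2:154482001-154483000 and chr3:19820001-19821200 were added after their values were seen. Alternatives tried were all reads kept, other read minimums, tile grids, shifts, lengths, reads with 2 alignments, each library alone, and other windows, valleys and expected shares. Sequences and gene annotation of mm8 were not used here.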

Additional observations from a re-analysis of the deposited data

Results flagged for a closer look

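Reads with 2 alignments stood outside the main measurement and were above the 3 counts that a count of 0 allows in 3 broad regions named for them. They numbered 735 in B2 and 421 in B6 in chr2:98467001-98468200, 570 and 360 in chr2:98463001-98463800, and 508 and 394 in chr14:18208801-18210400. Such a read appears at each of its alignments, and these counts cannot say which one it came from. The 3 regions were picked as those with the most such reads, so passing 3 counts followed from the choice. At least 10 such reads were held by 71 broad regions in B2 and by 44 in B6.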

How the results depend on the processing

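The number of broad regions followed the read minimum and the length asked for. It was 183 with at least 20 and 8 reads per tile, 1414 with at least 10 and 4, 130 with 5 or more tiles and 1737 with 3 or more, and 707 to 1368 with the minimum set in 1 library alone. All reads kept (566), tiles moved by 100 bp (455), shifts of 0 and 100 bp (625 and 570), reads with 1 or 2 alignments (565) and the left-out places kept (505) stayed within 1.5 times. Regions past the share test numbered 49 with all reads kept, 458 with the share of all distinct reads and 4 with the highest tile of each library only. Without regions rich in reads with 2 alignments, where 439 were counted, 4 passed. The backgrounds over all sites were 3.82%, 51.3%, 0.43% and 0.76% in that order. With all reads kept the ratio turned below 1 at chr2:98463001-98463800 (0.528), chr2:98467001-98468200 (0.366) and chr14:78215201-78216200 (0.746). With the summits of 1 library alone, not matched to the other library, 402 to 406 regions had more than 1. Regions with more than 1 shared summit numbered 285 to 336 with a stricter valley, a window of 150 bp or all reads kept. They numbered 221 with at least 10 reads per 100 bp at each summit and 322 without the regions rich in reads with 2 alignments. Among the 237 found again with moved tiles there were 183. The last 3 settings, leaving out those rich regions in the share test, the share outside the left-out places the ends outside the borders and the regions from unmoved ends in the strand distance were chosen after seeing the data. The width at 25% of the summit was 300.0 bp in place of 170 bp at 50% of it, which was 160 bp with all reads and 150 to 190 bp in 1 library alone. The distance between strands was 84.3 bp from medians and 92.8 bp with ends up to 100 bp outside the borders, and 79.7 bp in regions found from unmoved ends, in place of 74.6 bp (72.0 to 77.3 bp in 1 library alone), each a mean of both libraries. Duplicates had 13.1% in the highest tile in place of 11.2% (9.09% to 13.3%). For the changes that do not follow from fewer reads, tiles or regions, the cause was not tested. No paired analysis was possible because both libraries belong to 1 group. The low depth of B6 limits its summits, since the minimum there was 6 reads per tile.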
